A study of Mus musculus with 6 samples.

Results

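The genes described here are 48 human genes of the epithelial cell: 5 keratins, 9 genes of desmosomes, 4 of adherens junctions, 12 of tight junctions, 9 of cell polarity, and 9 surface proteins and regulators typical of epithelia. They were taken from a list of symbols, each represented by the brightest probe set that the platform annotation assigns to that gene alone. A probe set is a group of short probes on the array that reads 1 transcript, and its level is given as log2 of its intensity. Of the 48 genes, 45 had such a probe set and 43 passed the level filter, a mean log2 of at least 4 over the 6 arrays, as did 10271 of 19775 genes in all. PRKCZ (mean log2 3.41) and CRB3 (2.55) lay under the filter, with CLDN4 (5.26) the lowest member above it. CTNND1, F11R and ESRP2 were not analysed here.

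The arrays measured total RNA from NCI-H2228 tumours. NCI-H2228 is an established human line of lung adenocarcinoma that carries an EML4-ALK fusion, here grown under the skin of SCID mice, which lack mature B and T cells but keep other host cells. CH5424802, later named alectinib, inhibits the ALK kinase and was given by mouth. The 3 groups are vehicle (dose 0), 4 mg/kg and 20 mg/kg, with tumours collected 6 h after the dose and 2 arrays per group. All groups share the 1 cell line, and the labels name the mouse, the host, as organism. No age or sex of the mice is given, and the labels do not tie a group's arrays to different animals. The p-values therefore cover array-to-array spread, which could be technical.

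Epithelial cells are held together by a belt of junctions. Tight junctions, built from claudins, occludin and tricellulin on ZO scaffold proteins, seal the gap between cells. Adherens junctions join the actin skeletons of neighbours through E-cadherin and catenins, and desmosomes join their keratin filaments through desmogleins, desmocollins, plakophilins and desmoplakin. Keratin filaments are built from pairs of a type I and a type II keratin, in simple epithelia mostly KRT18 with KRT8. The PAR, Crumbs and Scribble complexes place the junctions and separate the apical from the basolateral membrane. Lung adenocarcinoma cells usually keep this programme to a varying degree, and its loss is a feature of the epithelial to mesenchymal transition.

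Across genes, both arrays of a group correlated at r = 0.992 (vehicle), 0.995 (4 mg/kg) and 0.997 (20 mg/kg). All 3 control probe sets for 18S ribosomal RNA read higher in both vehicle arrays than in any treated array, with 1713 and 4058 against 374 to 637 for the 1 at the 5′ end. This difference moves with every comparison against vehicle, and its part in the results was not tested. Vehicle replicate 2 stood apart: it was the highest array for these 3 controls and for 6 of the 7 squamous and skin keratinocyte markers above the level filter. It was also the highest for 4 of 7 lung adenocarcinoma markers and 2 of 7 fibroblast markers above that filter. The tumour label was set against marker lists: of 10 lung adenocarcinoma markers 7 passed the level filter, NKX2-1, NAPSA, SFTPB, KRT7, EPCAM, MUC1 and CEACAM6, while SFTPC, SFTPD and FOXA2 lay within 1 log2 unit of the floor on all arrays. The squamous and the fibroblast lists also had 7 of 10 above the filter, so these counts do not separate an adenocarcinoma from other types. The array holds probe sets for human genes, so host cells of the mouse are read only as far as their transcripts bind them, which was not measured. In bulk tumour RNA, fewer cells of a type and less RNA per cell cannot be told apart.

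At 20 mg/kg, 4 of the 43 members rose and 2 fell against vehicle (limma, Benjamini-Hochberg adjusted over all 10271 genes, threshold 0.05). The polarity gene PARD6B, the desmosome genes DSC2 and DSP and the tricellular junction gene MARVELD2 rose, while the keratin KRT18 and the surface protein CDCP1 fell. These 6 are 14.0% of the members, beside 4.33% of all genes tested, with 2.26% of all genes higher and 2.07% lower. The list was chosen with earlier results of these data known, so the shares here and below describe it and are not a test. The median log2 change of the members was 0.01, and that of all genes was -0.00. The change was above 0 for 51.2% of the members and 41.8% of all genes. It was below 0 for 20 members and 5075 of all genes, and 0 for 1 member and 906 of all genes. Both 20 mg/kg arrays lay above both vehicle arrays for 17 members, 39.5%, against 24.5% of all genes, and below them for 13, 30.2%, against 25.9%. The median of the members' mean log2 readings was 11.30 and that of all genes tested 8.63, and the part of the signal level in these shares was not tested.

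**Figure D1:**
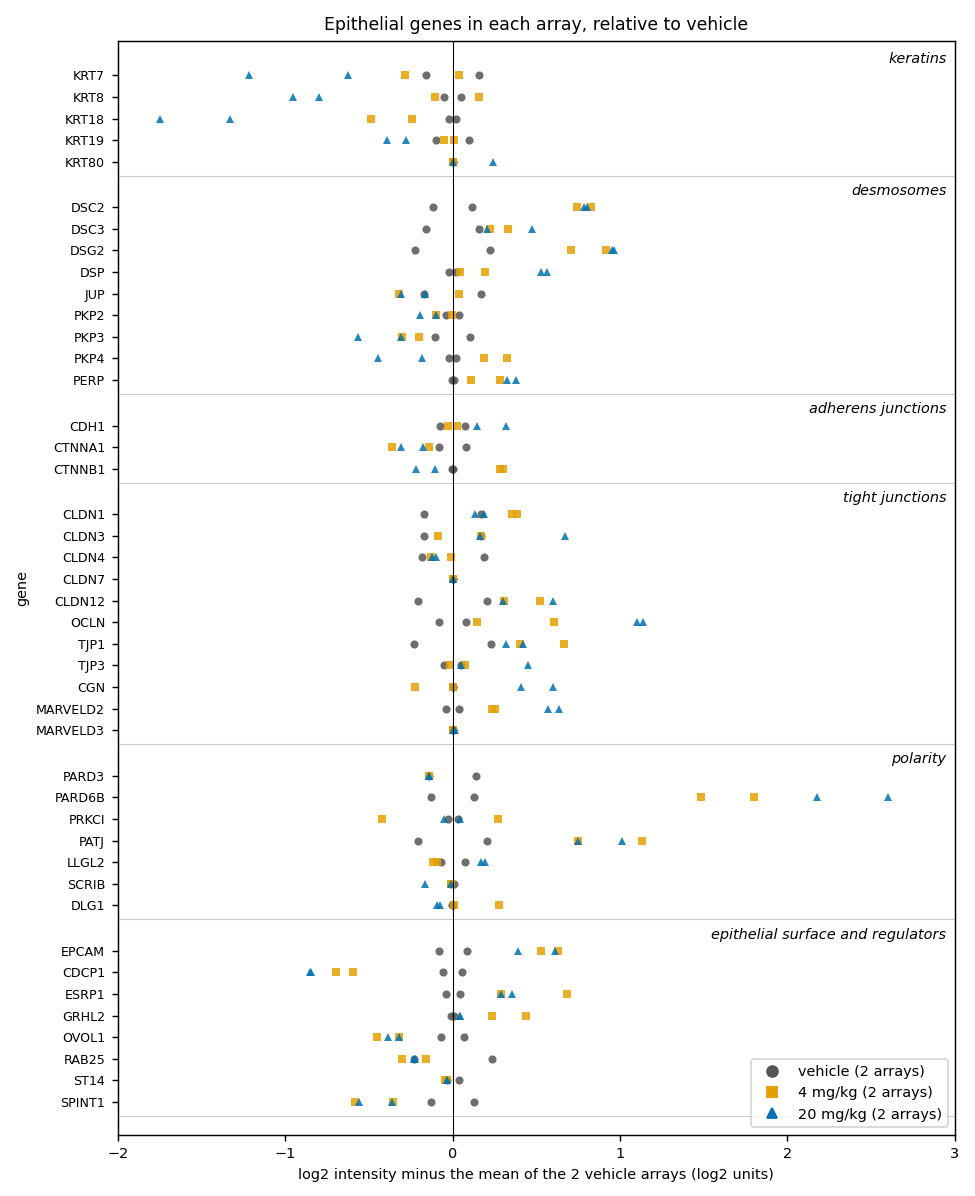
Each of the 43 genes is a row, grouped by structure, and each point is 1 array, placed by its log2 intensity minus the mean of the 2 vehicle arrays (circles vehicle, squares 4 mg/kg, triangles 20 mg/kg). PARD6B lies furthest to the right, at a log2 change of 2.39 for 20 mg/kg, and KRT18 furthest to the left, at -1.54.

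The calls rest on few arrays. With the second vehicle array, or either array of the higher dose, left out, limma called 0 members (14, 15 and 18 members had an unadjusted p under 0.05). Without vehicle replicate 1 it called 4, and DSP alone when 1 of the lower dose's arrays was dropped, which alters only the estimate of the spread. The log2 changes of the 6 genes kept their direction in every alternative fitted for them, and without single arrays ran from 2.18 to 2.60 for PARD6B, from -1.75 to -1.33 for KRT18, from 0.68 to 0.91 for DSC2, from 0.53 to 0.57 for DSP, from 0.57 to 0.64 for MARVELD2 and from -0.91 to -0.79 for CDCP1.

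The listed keratins, those of simple epithelia and KRT80, lay mostly below vehicle at 20 mg/kg. Of 5 KRT18 fell and 4 did not pass. Both arrays of the higher dose were below both vehicle arrays for 4 of the 5, beside 25.9% of all genes, with a median log2 change of -0.88 at 20 mg/kg and -0.02 at 4 mg/kg. KRT18, the type I keratin of simple epithelia, read log2 13.82 and 13.86 with vehicle, 13.35 and 13.60 at the lower dose, and 12.09 and 12.51 at the higher. Its 3 groups do not overlap, and they descend with dose. The change at 20 mg/kg was -1.54 (SE 0.18, adjusted p = 0.0416, n = 2 arrays per group), a 2.90-fold lower level. At 4 mg/kg it was -0.36 (adjusted p = 0.445).

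KRT8, the type II partner of KRT18, read 12.21 and 12.31 with vehicle, 12.43 and 12.16 at the lower dose, and 11.31 and 11.47 at the higher. Both 20 mg/kg arrays lie below the other 4, while vehicle and 4 mg/kg overlap. Its log2 change at 20 mg/kg was -0.88 (SE 0.12, adjusted p = 0.0529) and did not pass, although it did under 5 of 16 alternatives, 1 of them the stricter level filter. KRT7, a keratin of glandular epithelia, was at 12.09 and 12.41, then 12.28 and 11.96, then 11.03 and 11.62, so that its 20 mg/kg arrays were again the lowest 2 (log2 change -0.92, 95% interval -1.71 to -0.14, adjusted p = 0.163). KRT19, which lacks most of the usual keratin tail, followed the same order with a smaller difference, from 14.43 and 14.63 with vehicle to 14.14 and 14.25 at 20 mg/kg (-0.34, adjusted p = 0.131). KRT80 had an intensity of 128.2 in 5 arrays and 151.8 in 20 mg/kg replicate 2. The probe sets of KRT8 and KRT18 end in _x_at, which marks probes that may bind other transcripts, and both genes have many processed pseudogenes, so these readings may hold more than 1 gene. A second KRT7 probe set read log2 7.34 in all 6 arrays.

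**Figure D2:**
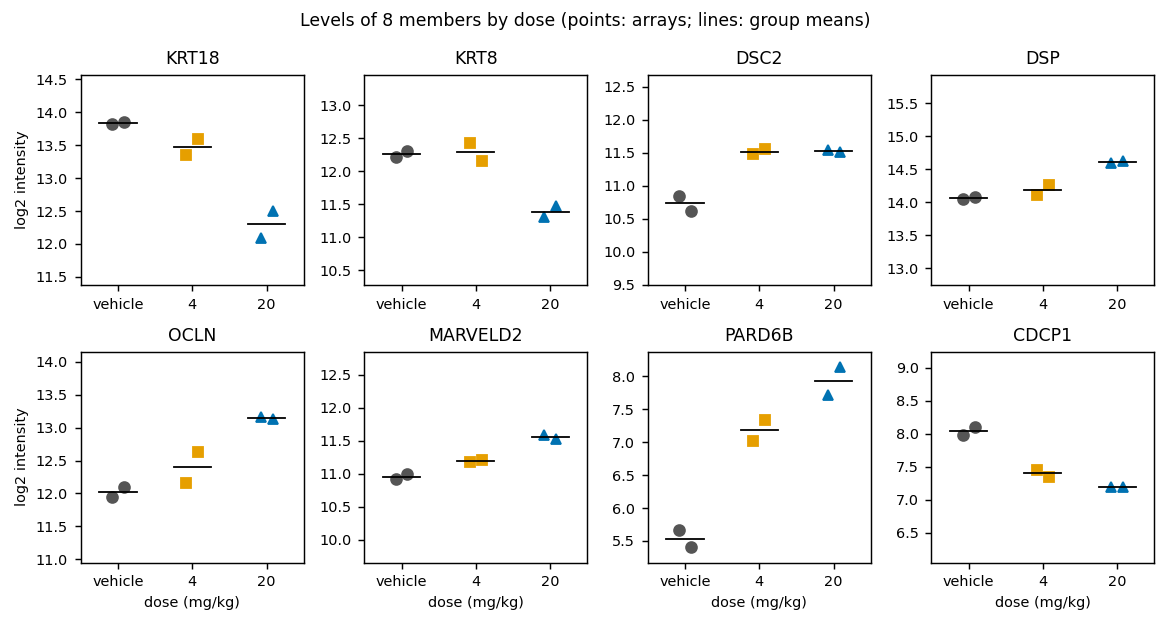
Log2 intensity of 8 genes by dose in mg/kg, with a point for each array and a line at each group mean, and every panel spanning the same log2 range. The arrays of KRT18 and CDCP1 are placed lower at each dose, and those of DSP, OCLN, MARVELD2 and PARD6B higher. KRT8 differs at 20 mg/kg alone, and DSC2 is as high at 4 as at 20 mg/kg.

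Desmosome genes divided. Of 9, DSC2 and DSP rose at 20 mg/kg and the other 7 did not pass. At that dose 5 of the 9 had both arrays above both vehicle arrays and 3 had both below, beside 24.5% and 25.9% of all genes. DSC2, a desmosomal cadherin, read 10.85 and 10.62 with vehicle, 11.48 and 11.56 at the lower dose, and 11.54 and 11.52 at the higher. All treated arrays lie above the vehicle arrays, and the doses overlap. The log2 change was 0.79 at 20 mg/kg (SE 0.09, adjusted p = 0.0411, 1.73-fold) and 0.79 at 4 mg/kg, where it did not pass (adjusted p = 0.138), with a difference between doses of 0.01 (95% interval -0.26 to 0.27). The other DSC2 probe sets were at 0.74, 0.43 and 0.21 at 20 mg/kg, all above 0 and none past the test. At 4 mg/kg, in the same order, they were at 0.17, 0.27 and -0.12, each below its value at 20 mg/kg. The equal level at both doses was thus read by the brightest probe set alone.

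DSP encodes desmoplakin, which anchors keratin filaments to the desmosome. It read 14.04 and 14.09, then 14.11 and 14.26, then 14.59 and 14.63, so each dose group lies above the one before it. The log2 change at 20 mg/kg was 0.55 (SE 0.06, adjusted p = 0.0388), a 1.46-fold rise with a 95% interval from 0.37 to 0.72. At 4 mg/kg it was 0.12 (adjusted p = 0.47).

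DSG2, the desmoglein of simple epithelia, read 12.25 and 11.80, then 12.74 and 12.94, then 12.99 and 12.98. All treated arrays stand above vehicle, yet the change of 0.96 (adjusted p = 0.0839) did not pass, and a second DSG2 probe set was at 0.02, with 11.73 and 11.83 against 11.82 and 11.78. The 2 DSG2 readings thus disagree. PERP, a membrane protein of desmosomes and a p53 target, stepped from 14.50 and 14.51 through 14.79 and 14.62 to 14.83 and 14.88 (log2 change 0.35, adjusted p = 0.0877). DSC3, a desmocollin of stratified epithelia, was at 0.34 (adjusted p = 0.323), with a second probe set at -0.17.

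The plakophilins and plakoglobin, armadillo proteins of the desmosomal plaque, had values below vehicle at 20 mg/kg, none past the test. PKP3 read 11.87 and 12.08, then 11.68 and 11.78, then 11.67 and 11.41, with no overlap between groups (-0.44, adjusted p = 0.159). PKP4 read 10.68 and 10.64 with vehicle, 10.84 and 10.98 at the lower dose, and 10.21 and 10.48 at the higher. It was thus above vehicle at the lower dose and below it at the higher (-0.31 at 20 mg/kg, adjusted p = 0.214), while the other 2 PKP4 probe sets gave -1.08 and -0.76 at 20 mg/kg and had means below vehicle at the lower dose (-0.26 each). JUP, or plakoglobin, was at -0.24 (adjusted p = 0.512) and PKP2 at -0.15 (adjusted p = 0.266).

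No adherens junction gene passed in any comparison. CDH1, or E-cadherin, read 13.74 and 13.88 with vehicle, 13.84 and 13.79 at the lower dose, and 13.96 and 14.13 at the higher. The 95% interval of its log2 change at 20 mg/kg ran from -0.02 to 0.48. CTNNA1, or alpha-catenin, which links the complex to actin, was at -0.24 (interval -0.56 to 0.08) and its other 4 probe sets lay between -0.43 and -0.00. CTNNB1, or beta-catenin, read 12.30 and 12.30, then 12.58 and 12.60, then 12.08 and 12.19. The lower dose was thus 0.29 above vehicle and the higher 0.16 below it (log2 change -0.16), with a difference between doses of -0.45 (SE 0.04, adjusted p = 0.0812).

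Most tight junction genes had a log2 change above 0 at 20 mg/kg, but fewer had separated arrays. Of 11 tested MARVELD2 rose at 20 mg/kg and 10 did not pass. The log2 change was above 0 for 9, among them MARVELD3 at 0.01, and below 0 for 1, CLDN4, with a median of 0.37. Both 20 mg/kg arrays lay above both vehicle arrays for 5 of the 11, 45.5%, beside 24.5% of all genes, and below them for 0. MARVELD2 encodes tricellulin, which seals the corners where 3 cells meet. It read 10.92 and 10.99 with vehicle, 11.19 and 11.20 at the lower dose, and 11.59 and 11.53 at the higher. The groups stand apart and ascend with dose. The log2 change was 0.60 at 20 mg/kg (SE 0.04, adjusted p = 0.021, 1.52-fold) and 0.24 at 4 mg/kg (adjusted p = 0.166). A second MARVELD2 probe set was at 0.36 at 20 mg/kg, with 7.11 and 7.09 against 7.67 and 7.26, which do not overlap, and it did not pass. At 4 mg/kg this probe set read 6.95 and 7.11 (log2 change -0.07), so it does not ascend at the lower dose.

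OCLN, or occludin, is a relative of tricellulin along the rest of the junction. It read 11.94 and 12.10, then 12.17 and 12.63, then 13.16 and 13.12. Both 20 mg/kg arrays lie above the other 4. The log2 change at 20 mg/kg was 1.12 (SE 0.18, adjusted p = 0.0648, 2.18-fold) and did not pass. The next 2 OCLN probe sets gave 0.98 and 0.97, near that value, and the last, near the level filter, gave 0.28. CGN, or cingulin, a cytoplasmic plaque protein, had an intensity of 511.7 in both vehicle arrays, 438.5 and 511.7 at the lower dose, and 776.4 and 680.2 at the higher (0.51, adjusted p = 0.100), with a second probe set at 0.58.

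The claudins form the seal itself and were less separated. CLDN1 read 12.97 and 12.63, then 13.16 and 13.19, then 12.99 and 12.94, highest at 4 mg/kg. CLDN12 was at a log2 change of 0.45 (95% interval -0.13 to 1.04) and CLDN3 at 0.42 (interval -0.28 to 1.11). CLDN4 was at -0.11 (interval -0.52 to 0.30). CLDN7 read exactly log2 11.25 in all 6 arrays and MARVELD3 7.94 or 7.95. GCRMA, the method that made these values, often gives exactly equal values, so these readings do not show that the transcripts were constant. The scaffold gene TJP1, or ZO-1, was at 0.37 (adjusted p = 0.381), with a second probe set at -0.26, and TJP3 at 0.25 (adjusted p = 0.434).

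The polarity genes were led by PARD6B, which showed the widest change among the members. PARD6B is the PAR6 subunit that joins atypical protein kinase C to CDC42 and PAR3. It read 5.67 and 5.41 with vehicle, 7.02 and 7.34 at the lower dose, and 7.71 and 8.14 at the higher. Intensities were 50.8 and 42.4, then 129.6 and 161.8, then 209.6 and 281.9, so the 3 groups ascend without overlap. The log2 change was 2.39 at 20 mg/kg (SE 0.22, adjusted p = 0.031, 5.24-fold) and 1.64 at 4 mg/kg (adjusted p = 0.15, 3.12-fold). The difference between doses was 0.75 (adjusted p = 0.295). The other 2 PARD6B probe sets lay under the level filter, so 1 reading carries this result.

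Its partners in the PAR complex did not pass the test. PARD3 read 6.53 in 5 arrays and 6.81 in vehicle replicate 1, and PRKCI, an atypical protein kinase C, was at a log2 change of -0.00 (95% interval -0.75 to 0.74). In the Crumbs complex PATJ, a scaffold with many PDZ domains, read 8.04 and 7.63, then 8.58 and 8.96, then 8.58 and 8.84. All treated arrays lie above vehicle and the doses overlap, but neither 0.88 at 20 mg/kg (adjusted p = 0.129) nor 0.94 at 4 mg/kg (adjusted p = 0.204) passed. Of the Scribble complex, which marks the basolateral side, LLGL2 was at 0.18, DLG1 at -0.08 and SCRIB at -0.09, none past the test. The DLG1 probe sets ran from -0.61 to 0.23.

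Among the surface proteins and regulators, CDCP1 fell and 7 did not pass. CDCP1, a transmembrane substrate of SRC family kinases, read 7.98 and 8.10 with vehicle, 7.45 and 7.35 at the lower dose, and 7.19 and 7.19 at the higher. The groups descend without overlap, and most of the difference is present at the lower dose. The log2 change was -0.85 at 20 mg/kg (SE 0.06, adjusted p = 0.0224), a 1.80-fold lower level, and -0.64 at 4 mg/kg (adjusted p = 0.114). A second CDCP1 probe set, with 7.11 and 6.95 against 6.76 and 6.67, was at -0.31 and did not pass.

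EPCAM, the epithelial adhesion molecule, read 13.69 and 13.86, then 14.30 and 14.41, then 14.17 and 14.39, above vehicle at both doses (0.50 at 20 mg/kg, adjusted p = 0.104). The matriptase inhibitor SPINT1 was below vehicle at both doses, at 11.98 and 12.23, then 11.52 and 11.75, then 11.74 and 11.54 (-0.46, adjusted p = 0.178). Its protease ST14, or matriptase, was at -0.04 (interval -0.13 to 0.06). Of the regulators, the transcription factor OVOL1 was at -0.36 (adjusted p = 0.096), the splicing factor ESRP1 at 0.32 (adjusted p = 0.331) and the transcription factor GRHL2 at 0.04 (adjusted p = 0.791). GRHL2 had intensities of 133.1 and 135.1 with vehicle and 158.1 and 181.6 at 4 mg/kg, a log2 value 0.34 above vehicle (adjusted p = 0.187). RAB25, a small GTPase of epithelial recycling, was at -0.23, with vehicle replicate 2 the highest array at 11.68.

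Against vehicle, 4 mg/kg called 0 members in limma, where 0.0584% of all genes were called. At an unadjusted p under 0.05 it had 14 members, 32.6%, beside 17.0% of all genes. Both 4 mg/kg arrays lay above both vehicle arrays for 18 members, 41.9% beside 22.8% of all genes, and below for 7, 16.3% beside 14.8%. The values furthest from vehicle were those of PARD6B, PATJ, DSG2, DSC2, CDCP1 and EPCAM, given above. Direct comparison of 20 with 4 mg/kg also called 0 members, where 0.37% of all genes were called, and 14 members, 32.6%, had an unadjusted p under 0.05 beside 13.4% of all genes. In it 9 members, 20.9%, were higher without overlap beside 13.6% of all genes, and 11, 25.6%, were lower beside 22.8%. The keratins KRT18 (log2 difference -1.17, adjusted p = 0.125), KRT8 (-0.90, adjusted p = 0.11) and KRT7 (-0.80, adjusted p = 0.366) had the lowest values, and OCLN, PARD6B and CGN (0.62, adjusted p = 0.154) the highest. The comparisons share arrays, so these values are given side by side and not as independent counts.

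**Figure D3:**
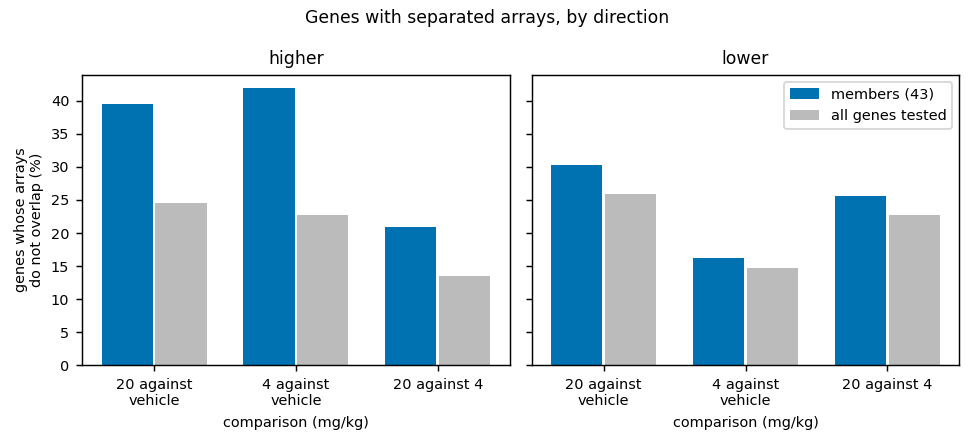
Bars give the percent of genes whose 2 arrays in the first group lie above (left) or below (right) both arrays of the second, for the 43 members and for all 10271 genes tested. The members' share of higher genes is 39.5% at 20 mg/kg and 41.9% at 4 mg/kg, beside 24.5% and 22.8% of all genes.

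For 6 members the arrays were placed higher at each dose, with no overlap at either step: DSG2, DSP, PERP, OCLN, MARVELD2 and PARD6B. Of these DSG2, PERP and OCLN did not pass the test in any comparison. The order rests on the brightest probe sets. Other probe sets of DSG2, PERP and MARVELD2 above the level filter lack it, as does the next brightest of OCLN. A fainter OCLN probe set keeps it, with 6.97 and 6.40, then 7.32 and 7.32, then 7.43 and 7.87. The 6 are 14.0% of the members, beside 4.61% of all genes. Another 3 were placed lower at each dose, KRT18, PKP3 and CDCP1, 6.98% beside 5.24%. The second probe sets of PKP3 and CDCP1 lack that order. The arrays of PKP4, CTNNB1, LLGL2 and DLG1, 9.30% of the members beside 2.08% of all genes, lay on opposite sides of vehicle at the 2 doses.

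More than 1 single-gene probe set passed the level filter for 24 members, and in 6 of them a probe set had the opposite sign at 20 mg/kg: DSC3, CLDN1, TJP1, PRKCI, DLG1 and ESRP1. None of these 6 passed the test. Of the genes that rose or fell, DSC2, MARVELD2 and CDCP1 had further probe sets with smaller values in the same direction, and DSP, KRT18 and PARD6B had no other above the filter.

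**Figure D4:**
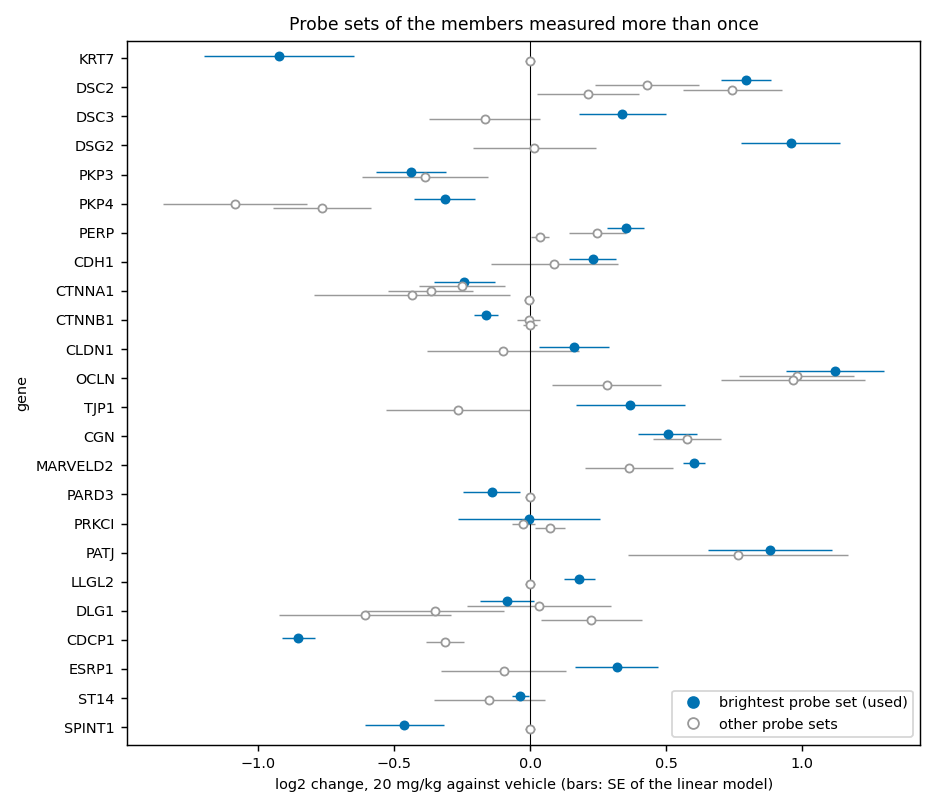
Log2 change at 20 mg/kg against vehicle for every probe set of the 24 genes with more than 1 above the level filter, with the SE of the linear model. Filled points are the brightest probe sets, used in the text, and open points the others. OCLN, DSC2, PKP3, PATJ and CGN lie on 1 side of 0, and DSG2 has points at 0.96 and 0.02.

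Of 57 related genes tested outside the list 2 were called at 20 mg/kg against vehicle, 3.51%, which is not above the 4.33% of all genes. Of 17 tested among other epithelial regulators and surface genes EHF, an epithelial ETS factor, rose from 13.07 and 13.09 through 13.48 and 13.67 to 14.07 and 13.91 (0.91, SE 0.09, adjusted p = 0.0360). Of 6 tested among other adherens and nectin genes VCL, or vinculin, which couples cadherin complexes to actin, fell from 11.79 and 11.84 to 11.03 and 11.14 (-0.73, SE 0.08, adjusted p = 0.0404). None of 8 other keratins, 3 other desmosome genes, 9 other tight junction genes or 14 other polarity genes passed in any comparison in limma. At 20 mg/kg against vehicle 1, 0, 1 and 2 of them had an unadjusted p under 0.05. The log2 change at that dose was above 0 for 4 and below 0 for 4 of the other keratins (median -0.05). It was below 0 for all 3 other desmosome genes (median -0.20). The 9 other tight junction genes divided, 4 above 0, 4 below and 1 at 0 (median 0). They ran from -0.63 for CLDN10 to 2.29 for CLDN8 (adjusted p = 0.351 and 0.156). CLDN8 read 5.38 and 5.05, then 5.49 and 6.34, then 6.72 and 8.28. The other polarity genes likewise divided, 7 above and 7 below 0 (median 0.03). Among the other polarity genes, chosen after their values were seen, the Crumbs complex genes PALS1 (0.93, adjusted p = 0.0531) and LIN7C (0.73, adjusted p = 0.0798) did not pass. The scaffold gene MPP7 (0.23, adjusted p = 0.359), chosen likewise, did not pass either. Of the transcription factors of epithelial to mesenchymal transition, SNAI1 and SNAI3 lay within 1 log2 unit of the floor and ZEB1 under the level filter. SNAI2 read 9.73 and 9.75, then 9.81 and 9.89, then 8.88 and 9.21, lowest at 20 mg/kg (-0.70, adjusted p = 0.0812). ZEB2 (0.48), TWIST1 (0.06) and TWIST2 (-0.43) did not pass either.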

How the data were processed

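Total RNA from xenograft tumours was made into biotin-labelled cRNA, per the labels' protocols, and read on 6 human expression arrays. The authors deposited intensity values on a linear scale for 54675 probe sets, and the submitters' processing notes name GCRMA and R 2.10.0. GCRMA corrects background by probe sequence and summarises probes by median polish, which gives exact ties: 8 of 43 members, and 32.3% of all genes, had equal values (within 1e-06 on the log2 scale) in both arrays of 1 or more groups. The lowest intensity was 4.58 in every array. The sources used here do not state which arrays were normalized jointly.

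Intensities were converted to log2. Probe sets were named by GEO's platform annotation, whose symbols may be outdated (41097 with 1 gene, 1801 with several, 11777 with none listed). Each gene was read by its brightest single-gene probe set, and genes with a mean log2 under 4 were left out. A linear model of the 6 arrays (limma 3.58.1, R 4.3.3, lmFit and eBayes) had 3 residual and 0.723 prior degrees of freedom, with two-sided tests and Benjamini-Hochberg adjustment over all genes within each of 3 comparisons. Each SE comes from a spread pooled over the 3 groups. Scripts were tested on simulated data. The number of arrays limits the precision. The members and lists were chosen with earlier results of these data known. Any member past the filter may be named; of the related lists, genes past the test, the transition factors and marker counts. Alternatives were the level filter, log2(value + 16), the probe set, the scaling, the arrays in the fit, the replicate number as a block and the omission of tied genes or single arrays. Sequences were not used here.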

Additional observations from a re-analysis of the deposited data

Results flagged for a closer look

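For 4 members the arrays of the 2 doses lay on opposite sides of both vehicle arrays. The difference of 20 against 4 mg/kg was -0.57 for PKP4 (adjusted p = 0.179), -0.45 for CTNNB1 (adjusted p = 0.0812), 0.28 for LLGL2 (adjusted p = 0.184) and -0.23 for DLG1 (adjusted p = 0.494), on the log2 scale with n = 2 arrays per group and limma's test. None passed the threshold, so the opposite placement is a description of these arrays. The other PKP4 probe sets had means below vehicle at both doses, and those of CTNNB1 differed by -0.06 and -0.02 between doses.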

How the results depend on the processing

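The 6 members called at 20 mg/kg against vehicle became 0 with no level filter (20 with an unadjusted p under 0.05), 1 (DSP) with the next brightest probe set, 12 after quantile normalization, 14 with arrays centred on the median and 1 (DSP) with only the 4 compared arrays. DSP and KRT18 have only 1 single-gene probe set each, which the next brightest setting keeps, so it gave neither gene another reading. With the replicate block limma called 0 (18 with an unadjusted p under 0.05). The replicate numbers are only shared numbers: the deviations of same-numbered arrays correlated at 0.15, -0.12 and 0.13 across genes. Leaving out single arrays gave between 0 and 4 members at 20 mg/kg, between 0 and 3 at 4 mg/kg and between 0 and 2 for 20 against 4 mg/kg. At 4 mg/kg, quantile normalization gave 1 member (PARD6B) and centred arrays 5 (DSC2, DSG2, PARD6B, PATJ and CDCP1), and 3 (DSC2, CLDN1 and CDCP1) passed without vehicle replicate 1 and 1 (GRHL2) without 4 mg/kg replicate 1. For 20 against 4 mg/kg these scalings gave 3 and 6 members, and 2 (DLG1 and GRHL2) passed without 4 mg/kg replicate 1. Both scalings raise the calls over all genes too, to 1536 and 1958 at 20 mg/kg, and shift the median change of all genes, by -0.10 at 4 mg/kg with centred arrays, the furthest from 0. The other counts stayed within 1.5 times of the main ones, and no call of a member changed sign under any alternative fitted. Without _x_at and _s_at probe sets KRT18 has no reading. CDCP1 was at -0.31 there and with its next brightest probe set, MARVELD2 at 0.36 and DSC2 at 0.43 with theirs, none past the test. The causes were not tested. A small number of arrays and many tied values limit the test.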

Other observations

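Some keratins of stratified epithelia, chosen here after their values were seen, were far above the floor in all 6 arrays. KRT5, a basal cell keratin, read 19747 and 25494 in intensity with vehicle, 19133 and 18546 at the lower dose, and 20486 and 17992 at the higher, and KRT13, a keratin of mucosal epithelia, ran from 11188 to 21263. KRT14, the basal partner of KRT5, read 13818 and 19771 with vehicle and between 8462 and 9999 in the 4 treated arrays, so its arrays do not overlap between vehicle and treatment. Its log2 change was -0.85 at 20 mg/kg (adjusted p = 0.124) and -0.83 at 4 mg/kg (adjusted p = 0.212), neither past limma's test. Of the 8 other keratins tested, 4 were above 0 at 20 mg/kg: KRT1 (0.12), KRT4 (0.18), KRT10 (0.14) and KRT15 (0.15). At 4 mg/kg KRT10 lay above vehicle without overlap (0.59) and KRT1 below it (-0.97). None of these passed limma's test. The summed intensity of the squamous and skin keratinocyte markers ran from 52764 to 73865 with vehicle, 46285 to 49759 at 4 mg/kg and 47699 to 48014 at 20 mg/kg, with LORICRIN within 1 log2 unit of the floor. Vehicle replicate 2 gave the highest sum, and it was the highest array for KRT5, KRT13 and KRT14. KRT15, another basal keratin, ran from 173.0 to 799.6, with vehicle replicate 1 lowest and vehicle replicate 2 highest. The part of these markers in the members' results was not tested.

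Markers of other host and tumour cell types did not pass in any comparison. Fibroblast markers summed to between 36926 and 41353 over the 6 arrays, most of it COL1A1, with LUM, PDGFRA and PDGFRB within 1 log2 unit of the floor. ACTA2, chosen after its values were seen, read log2 9.88 and 10.04, then 9.61 and 9.61, then 9.28 and 9.42. Its log2 change at 20 mg/kg was -0.61 (limma, adjusted p = 0.0508). There COL1A2 was at 0.28, COL3A1 at 0.29, POSTN at 0.22, COL1A1 at -0.02 and FAP at -0.19. Leukocyte markers summed to between 110 and 115, with PTPRC, CSF1R, CD3E and MS4A1 likewise near the floor, and endothelial markers to between 459 and 566, with CDH5, VWF, TEK, CLDN5 and EMCN near it too.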
